A study of Homo sapiens with 9 samples.

Results

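The tricarboxylic acid (TCA) cycle and the steps that feed pyruvate into it were followed through 29 genes, chosen by name, of the 60675 genes counted in each library. The choice was made with earlier results of these data known, so the counts below describe the set and do not test it. All 29 were found by symbol and all 29 passed the filter on low counts that left 19278 genes for testing. The RNA came from LNCaP:C4-2, an androgen-independent prostate cancer cell line derived from LNCaP and used as a model of castrate-resistant disease. Cells carried a doxycycline-inducible lentiviral short hairpin RNA, either a scrambled control that targets no gene (shScramble) or 1 of 2 hairpins against METTL3 (shMETTL3 guide 2 and shMETTL3 guide 1), with 3 libraries in each group. METTL3 is the catalytic subunit of the complex that writes N6-methyladenosine (m6A) on RNA. All groups, shScramble included, were selected with puromycin and given 1 µg/ml doxycycline for 6 days. The cells were grown in phenol red-free medium with charcoal-stripped serum. The sample titles also name a vehicle, without saying which. The vehicle that the study describes is ethanol, its control for androgen treatment in such medium. The cells of each hairpin were selected for stable integration, and the study calls them clones without giving their number, so a hairpin and the cells that carry it cannot be told apart, and nothing in the labels says that the 3 libraries of a group came from separate transductions, so that p-values measure the spread between these libraries only.

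The TCA cycle oxidises acetyl groups to carbon dioxide in the mitochondrial matrix and hands their electrons to the respiratory chain, while its intermediates also leave the cycle to build fatty acids, amino acids and haem. Pyruvate enters the matrix through the mitochondrial pyruvate carrier and is either oxidised to acetyl-CoA by the pyruvate dehydrogenase complex or carboxylated to oxaloacetate. Normal prostate epithelium is known for accumulating zinc and secreting citrate rather than oxidising it, and prostate cancer cells are known for losing that habit.

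Libraries held 21899501 to 30897639 counts in total. METTL3 RNA checked the labels. METTL3 was counted 922, 1010 and 753 times in the shScramble libraries, 382, 415 and 349 times with guide 2, and 837, 837 and 886 times in the libraries labelled guide 1. METTL3 was therefore lower with guide 2 (log2 fold change −0.95, SE 0.0687, adjusted p = 2.97e-12), whereas its fitted change in the libraries labelled guide 1 was −0.08 (SE 0.0633, adjusted p = 0.251). Markers of prostate luminal cells were present throughout. The summed level of 6 luminal markers (KLK2, KLK3, HOXB13, FOLH1, KRT8 and KRT18) was 2109 to 2117 CPM (counts scaled to a common library size, here without further factors) in shScramble, 2044 to 2148 with guide 2 and 1042 to 1054 in the libraries labelled guide 1. FOLH1 made up most of that sum, and its members did not move alike. In the libraries labelled guide 1, HOXB13, FOLH1, KRT8 and KRT18 were called lowered (−0.74 to −1.15). KLK2 was lower by −0.36 (adjusted p = 0.00666), under the limit for a call and with libraries that overlapped shScramble, whereas KLK3 changed by 0.15. With guide 2, KLK3 was called lowered (−0.82) and HOXB13 raised (0.78). The sum of 6 basal or other markers was 33.0 to 33.3, 5.73 to 6.01 and 232 to 267 CPM in the same order. KRT5 and TP63, which define basal cells, had 0 counts in every library and KRT14 at most 2, so GSTP1, CAV1 and VIM made up that sum. The part of these markers in the results given here was not tested. In bulk RNA, fewer cells of a type and less RNA per cell cannot be told apart.

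Sequences are shown for the hairpins, which define the groups, and further on for the promoters of the members that changed most. The hairpin targets are given 5′ to 3′, with the site that pairs with bases 2 to 8 of the antisense strand, the seed, in capitals.
shMETTL3 guide 2 target: gctgcacttcagaCGAATTAt
shMETTL3 guide 1 target: cgtcagtatcttgGGCAAGTt

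The guide 2 target crosses a junction of coding exons 4 and 5 of METTL3 on the minus strand of chromosome 14 (GRCh38), with 12 bases at chr14:21501728-21501739 and 9 bases at chr14:21501121-21501129. The guide 1 target lies in coding exon 6 at chr14:21500633-21500653. The guide 2 seed site was found in 0 of the 29 members' reference transcripts, against 3.2% of 19975 protein-coding genes. The guide 1 seed site was found in 1 member, SDHD, against 17.0% of the same genes. These matches are a description of the letters and not of binding.

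Promoter windows of 250 bases upstream of the RefSeq start (GRCh38.p14) were found for 27 of the 29 members, all but OGDH and SDHC. They were searched on both strands for letters of factors known for nuclear genes of mitochondrial proteins: CGCATGCG, the core of the NRF1 palindrome; TGCGCA, a shorter run of the same palindrome; CCGGAAG, the core bound by ETS factors such as GABPA; AAGGTCA, bound by the oestrogen-related receptors; and CACGTG, the E-box. TGCGCA was added after the SDHA window had been read, and a whole NRF1 palindrome would hold both NRF1 runs. The members with the highest and the lowest log2 fold change with guide 2 were SDHA and MPC1, and those with the highest and the lowest in the libraries labelled guide 1 were OGDHL and IDH1. Their windows follow, with any of these letters in capitals.
SDHA (chr5:218070-218319, plus strand): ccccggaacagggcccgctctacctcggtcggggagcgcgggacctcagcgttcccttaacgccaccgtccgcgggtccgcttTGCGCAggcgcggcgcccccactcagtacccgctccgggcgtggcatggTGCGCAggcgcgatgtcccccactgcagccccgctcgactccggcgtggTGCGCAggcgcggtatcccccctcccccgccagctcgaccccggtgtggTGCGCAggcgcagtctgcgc
MPC1 (chr6:166382941-166383190, minus strand): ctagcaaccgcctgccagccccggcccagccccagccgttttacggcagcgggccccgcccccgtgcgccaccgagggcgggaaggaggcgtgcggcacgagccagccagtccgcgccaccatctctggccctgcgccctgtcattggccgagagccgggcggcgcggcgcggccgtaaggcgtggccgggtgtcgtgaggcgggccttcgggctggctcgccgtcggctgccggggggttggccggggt
OGDHL (chr10:49762324-49762573, minus strand): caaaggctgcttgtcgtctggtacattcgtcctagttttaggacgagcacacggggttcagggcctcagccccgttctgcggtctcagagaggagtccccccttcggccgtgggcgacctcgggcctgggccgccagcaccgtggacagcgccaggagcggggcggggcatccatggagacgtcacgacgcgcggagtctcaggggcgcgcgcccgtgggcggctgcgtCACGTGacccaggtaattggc
IDH1 (chr2:208254459-208254708, minus strand): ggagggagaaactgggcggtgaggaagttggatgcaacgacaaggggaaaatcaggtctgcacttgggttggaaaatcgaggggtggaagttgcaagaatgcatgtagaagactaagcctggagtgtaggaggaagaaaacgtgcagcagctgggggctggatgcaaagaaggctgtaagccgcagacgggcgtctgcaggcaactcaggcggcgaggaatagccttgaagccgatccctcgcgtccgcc

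The SDHA window held TGCGCA 4 times and the OGDHL window held 1 E-box, and neither the MPC1 nor the IDH1 window held any of the 5 letter runs. The IDH1 window lies inside the span that the count files give the gene (208236227 to 208266074), so sequence upstream of the outermost start was not searched. The same holds for IDH2 (window 90100622 to 90100871, gene 90083045 to 90102504) and for some other members. Over the 27 windows, TGCGCA was present in 6 (IDH3B, IDH3G, SDHA, SDHB, SDHD and MPC2; 22.2%, against 7.0% of 27305 promoters) and CCGGAAG also in 6 (IDH3B, IDH3G, DLST, SDHB, SDHD and MDH2; 22.2%, against 8.8%). AAGGTCA was in 2 (7.4%, against 3.5%), CACGTG in 2 (7.4%, against 6.5%) and CGCATGCG in 1, SDHD (3.7%, against 1.9%). The member windows were also richer in G and C, with a median of 68.4% against 58.0% over all promoters. A match is a run of letters and not a bound site.

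With guide 2, RNA of nearly the whole cycle was higher than with shScramble. Of the 29 members, 9 were called raised, which needs an adjusted p under 0.05 and at least a 1.5-fold change (0.585 on the log2 scale), against 8.85% of all genes tested and 10.7% of the genes in the highest-expressed tertile, where 28 of the 29 members lie. The 9 were SDHA, IDH2, DLAT, OGDHL, CS, OGDH, PDHA1, MDH2 and SUCLG2. 0 members were called lowered by edgeR, against 20.4% of all genes, and DESeq2 also called 0, while 2 members were lower at an unadjusted p under 0.05. By the adjusted p alone, 26 members were higher and 2 (MPC1 and IDH1) were lower, against 30.0% and 31.7% of all genes. All 3 guide 2 libraries lay above all 3 shScramble libraries for 26 members, against 32.5% of all genes. The median log2 fold change of the members was 0.50, with a range from −0.30 to 1.13, beside a median of −0.04 over all genes and 0.16 over the highest-expressed tertile. Only raised calls were also counted in that tertile, here and in the comparisons below. The shares beside the other counts are over all genes and may differ in that tertile.

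In the libraries labelled guide 1 the same genes went in either direction. OGDHL and IDH3B were called raised and IDH1 and DLD were called lowered, which is 2 of 29 each way, against 21.2% and 16.5% of all genes and, for raised genes, 10.7% of the highest-expressed tertile. By the adjusted p alone 6 members were higher and 13 lower, against 35.4% and 33.0% of all genes. All 3 libraries labelled guide 1 lay above shScramble for 7 members and below it for 12, against 36.5% and 34.5% of all genes, and 10 members overlapped. The median of the members was −0.07, beside −0.02 over all genes. These counts share the shScramble libraries with those of guide 2.

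The guide 2 and guide 1 libraries were therefore also compared with each other, which tests the difference between the hairpins without the control. Here 13 of 29 members were called higher with guide 2, against 19.1% of all genes and 22.3% of the highest-expressed tertile. 0 members were called lower by edgeR or by DESeq2, against 28.2% of all genes, and 3 were lower at an unadjusted p under 0.05. By the adjusted p alone 25 members were higher and 3 (MPC1, IDH3B and IDH3G) were lower, against 34.7% and 39.9% of all genes. The median difference was 0.53 on the log2 scale, beside −0.06 over all genes and 0.18 over the highest-expressed tertile.

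**Figure D1:**
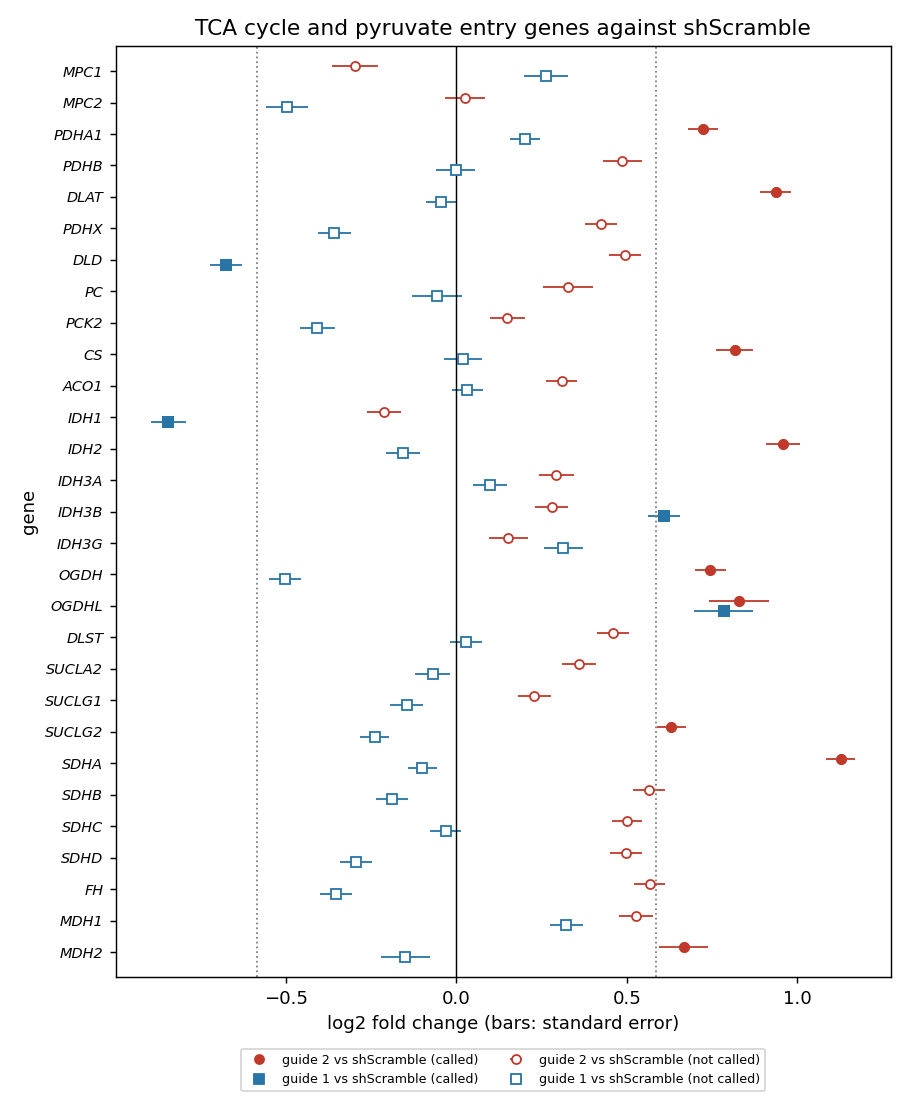
Log2 fold change against shScramble (x axis) of each of the 29 genes (y axis, in the order of their place in the pathway), for guide 2 (red circles) and for the libraries labelled guide 1 (blue squares), with standard errors as bars. Filled points are called, open points are not, and dotted lines mark a 1.5-fold change; 27 of 29 red points but 10 of 29 blue points lie above 0.

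Summed over the 29 genes, the level was 5335, 5453 and 5299 CPM in shScramble, 7118, 7070 and 7486 CPM with guide 2 and 4358, 4340 and 4541 CPM in the libraries labelled guide 1. The 3 groups did not overlap, with guide 2 highest and guide 1 lowest. As a share of all counts the 29 genes took 0.552% to 0.562%, 0.664% to 0.694% and 0.447% to 0.461% in the same order. The most abundant genes weigh most in these sums. Between shScramble and the libraries labelled guide 1, mean CPM went from 1026 to 571 for IDH1, 435 to 272 for DLD and 619 to 466 for PCK2. The median log2 fold change of the members there was −0.07, with 10 of 29 higher, so the lower sum is not a fall shared by all members. CPM values of single genes and their sum are scaled here and in the rest of the text by edgeR's TMM factors, which were 1.03 to 1.04 in shScramble, 0.928 to 0.940 with guide 2 and 1.02 to 1.04 in the libraries labelled guide 1. The scaling matters to the size of the guide 2 changes. By library size alone the median of all genes moved from −0.04 to −0.19 and that of the members from 0.50 to 0.34, and 6 members rather than 9 were called, without SUCLG2 (0.48), MDH2 (0.52) and PDHA1 (0.57). Over all genes the share of raised among called genes moved from 30.2% to 17.2%. The members stood 0.54 above the median of all genes under either scaling. That gap could hardly change, because the scaling shifts all genes of a comparison nearly alike, so it does not test the scaling. The median of the highest-expressed tertile, where 28 of the 29 members lie, was 0.16 with the TMM factors.

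**Figure D2:**
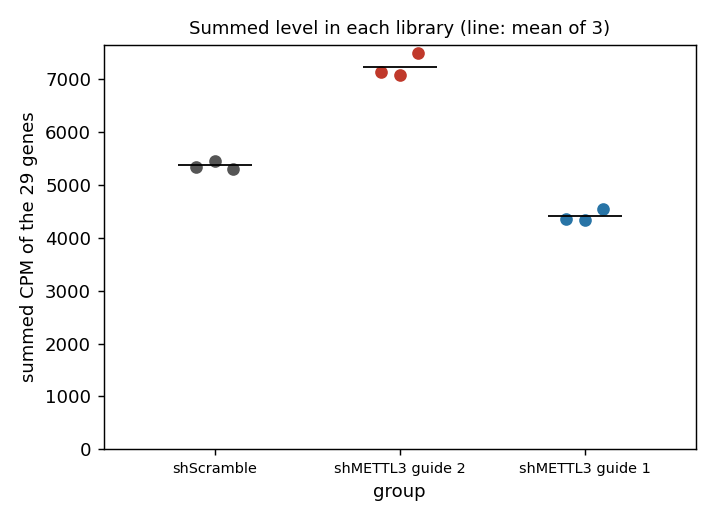
Summed CPM of the 29 genes (y axis, from 0) in each of the 9 libraries (points) by group (x axis), with the mean of each group as a line. The guide 2 libraries lie at 7070 to 7486, above the shScramble libraries at 5299 to 5453, which lie above the libraries labelled guide 1 at 4340 to 4541. The most abundant genes weigh most in the sum.

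The pyruvate carrier, a complex of MPC1 and MPC2 in the inner mitochondrial membrane, did not follow the rest. MPC1 was at 36.2, 38.0 and 37.1 CPM in shScramble, 31.6, 30.9 and 28.0 CPM with guide 2 and 48.3, 40.6 and 44.6 CPM in the libraries labelled guide 1. MPC2 was at 89.7, 96.6 and 97.0 CPM, 93.7, 101 and 93.6 CPM, and 74.4, 60.1 and 66.2 CPM in the same order. For MPC1 the guide 2 libraries were all below and the guide 1 libraries all above shScramble, with log2 fold changes of −0.30 (SE 0.0673, adjusted p = 0.000433) and 0.26 (SE 0.0642, adjusted p = 0.000732), both under the 1.5-fold limit. For MPC2 the guide 2 libraries overlapped shScramble (0.02, SE 0.0597, adjusted p = 0.736) and the guide 1 libraries were all below it (−0.50, SE 0.0602, adjusted p = 8.18e-08). The fitted guide 2 change of MPC2 took the other sign by library size alone (−0.13) and with a minimum mean of 1 CPM (−0.02). The balance of the pair therefore lay on opposite sides of shScramble in the 2 shMETTL3 groups. Of their summed RPKM (CPM divided by the exon length, a level per length), MPC1 made up 39.3% ± 0.632 (SD, n = 3) with shScramble, 34.2% ± 1.44 with guide 2 and 52.4% ± 0.552 in the libraries labelled guide 1, with no overlap between groups (exact permutation p = 0.1 for each shMETTL3 group against shScramble, two-sided, the smallest that 3 libraries against 3 allow). DCAF6 covers 22.5% of the MPC2 exon bases on the other strand.

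The pyruvate dehydrogenase complex converts pyruvate to acetyl-CoA through E1 (PDHA1 and PDHB), E2 (DLAT), E3 (DLD) and the protein that tethers E3 to the core (PDHX). All 4 genes particular to the complex were higher with guide 2, and DLAT and PDHA1 were called. DLAT (ENSG00000150768) lies on the plus strand of chromosome 11 from 112024814 to 112064390. DLAT was at 109, 110 and 117 CPM in shScramble, 209, 215 and 219 CPM with guide 2 and 107, 110 and 109 CPM in the libraries labelled guide 1. Only the guide 2 libraries stood apart, with a log2 fold change of 0.94 (SE 0.0446, adjusted p = 5.36e-16) against −0.04 (SE 0.0449, adjusted p = 0.389) in the libraries labelled guide 1. PDHA1 was at 124, 136 and 129 CPM, 212, 213 and 218 CPM, and 152, 148 and 147 CPM in the same order. Its guide 1 libraries also lay above shScramble, at 0.20 (SE 0.0448, adjusted p = 0.000266) against 0.72 (SE 0.0448, adjusted p = 1.19e-13) with guide 2. MAP3K15 covers 21.3% of the PDHA1 exon bases on the other strand.

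PDHX was at 81.1, 85.2 and 87.0 CPM in shScramble, 115, 112 and 113 CPM with guide 2 and 67.5, 63.1 and 66.9 CPM in the libraries labelled guide 1. The 3 groups did not overlap, and PDHX differed between the hairpins by 0.78 (SE 0.0475, adjusted p = 1.35e-14) without being called against shScramble with either. PDHB, the partner of PDHA1, changed by 0.49 with guide 2 (SE 0.0572) and by 0.00 in the libraries labelled guide 1 (SE 0.0574). DLD, the E3 that the 2-oxoglutarate dehydrogenase and glycine cleavage complexes share, was at 419, 446 and 440 CPM, 602, 604 and 632 CPM, and 279, 260 and 278 CPM in the same order. Guide 2 lay above and guide 1 below shScramble in every library, by 0.50 (SE 0.0464, adjusted p = 4.78e-10, under the 1.5-fold limit) and −0.68 (SE 0.0467, adjusted p = 3.9e-13, called). The direct difference of 1.17 (SE 0.0471) was the third largest of the set. Per length, DLAT made up 50.8% ± 0.540 of DLAT and PDHX together with shScramble, 59.5% ± 0.846 with guide 2 and 56.2% ± 1.21 in the libraries labelled guide 1, and PDHA1 made up 62.7% ± 1.20, 66.4% ± 0.297 and 66.0% ± 1.68 of PDHA1 and PDHB (SD, n = 3). For both pairs each shMETTL3 group lay above shScramble in every library (exact permutation p = 0.1).

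Other reactions tie pyruvate and the cycle together through oxaloacetate. PC, pyruvate carboxylase, which refills oxaloacetate, lay between 35.3 and 39.0 CPM in shScramble, 41.9 and 51.3 CPM with guide 2 and 31.9 and 38.6 CPM in the libraries labelled guide 1, with log2 fold changes of 0.33 (SE 0.0732) and −0.06 (SE 0.0735). PCK2, the mitochondrial phosphoenolpyruvate carboxykinase, which draws oxaloacetate off, lay between 594 and 647 CPM, 662 and 726 CPM, and 437 and 496 CPM, with changes of 0.15 (SE 0.0521, adjusted p = 0.0151) and −0.41 (SE 0.0523, adjusted p = 8.87e-08). Neither was called in any comparison. LRFN4 covers 10.5% of the PC exon bases on the other strand.

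CS, citrate synthase, joins acetyl-CoA to oxaloacetate and opens the cycle. Its gene, CS (ENSG00000062485), occupies bases 56271699 to 56300392 of chromosome 12, minus strand, in GRCh38, the build of the files. CS was at 312, 303 and 277 CPM in shScramble, 513, 509 and 549 CPM with guide 2 and 274, 315 and 316 CPM in the libraries labelled guide 1. The guide 2 libraries were apart (0.82, SE 0.0554, adjusted p = 2.05e-12) and the other 2 groups overlapped (0.02, SE 0.0553, adjusted p = 0.759). ACO1, the cytosolic aconitase, which also serves as an iron-responsive RNA-binding protein, was narrow within groups at 75.8 to 76.8 CPM with shScramble and 93.5 to 94.8 CPM with guide 2 (0.31, SE 0.0461, adjusted p = 1.76e-06), and lay between 74.9 and 80.0 CPM in the libraries labelled guide 1.

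The isocitrate dehydrogenases split by enzyme. IDH2 (ENSG00000182054, minus strand of chromosome 15, 90083045 to 90102504), the NADP-dependent enzyme of the matrix, was at 119, 108 and 108 CPM in shScramble, 210, 222 and 219 CPM with guide 2 and 93.7, 104 and 103 CPM in the libraries labelled guide 1. Its guide 2 libraries all lay above shScramble (0.96, SE 0.050, adjusted p = 3.5e-15), and its guide 1 libraries all below it (−0.16, SE 0.0505, adjusted p = 0.00761). IDH1 (ENSG00000138413, minus strand of chromosome 2, 208236227 to 208266074), the NADP-dependent enzyme of the cytosol and peroxisomes, was at 976, 1065 and 1036 CPM, 884, 861 and 910 CPM, and 593, 536 and 584 CPM in the same order. IDH1 was thus below shScramble in every library of both shMETTL3 groups, by −0.21 with guide 2 (SE 0.0502, adjusted p = 0.000647, under the 1.5-fold limit) and by −0.84 in the libraries labelled guide 1 (SE 0.0506, adjusted p = 1.68e-14, called). Per length, IDH2 made up 17.0%, 14.5% and 14.9% of IDH1 and IDH2 together in shScramble, 28.5%, 30.2% and 28.7% with guide 2 and 21.0%, 24.5% and 22.8% in the libraries labelled guide 1. Both shMETTL3 groups lay above shScramble without overlap (exact permutation p = 0.1 each), with guide 2 through more IDH2 and slightly less IDH1, and the libraries labelled guide 1 through less IDH1.

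The NAD-dependent isocitrate dehydrogenase of the cycle, made of IDH3A, IDH3B and IDH3G, was higher with guide 2 by less than the 1.5-fold limit, at 0.29, 0.28 and 0.15. IDH3B, a regulatory subunit, was at 61.8, 61.7 and 64.8 CPM in shScramble, 75.1, 76.1 and 77.2 CPM with guide 2 and 98.8, 93.2 and 94.9 CPM in the libraries labelled guide 1. The 3 groups did not overlap and the guide 1 libraries were the highest (0.61, SE 0.0469, adjusted p = 4.04e-12, called). IDH3G, the other regulatory subunit, had the same order of means (0.31 in the libraries labelled guide 1, SE 0.0562), with an overlap between guide 2 and guide 1. IDH3A, the catalytic subunit, changed by 0.10 in the libraries labelled guide 1 (SE 0.0501, adjusted p = 0.0831), so its share of IDH3A and IDH3B per length was 17.1% ± 0.137 there, below the 22.7% ± 0.416 of shScramble in every library (exact permutation p = 0.1), whereas guide 2 (22.9% ± 0.440) overlapped shScramble. Genes on the other strand, CIB2 and ACSBG1 for IDH3A and SSR4 for IDH3G, cover 38.9% and 10.2% of their exon bases.

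The 2-oxoglutarate dehydrogenase complex is the step between 2-oxoglutarate and succinyl-CoA, with E1 from OGDH or its paralogue OGDHL, E2 from DLST and the shared E3. OGDH (ENSG00000105953) lies on the plus strand of chromosome 7 from 44606572 to 44709066. OGDH was at 244, 251 and 230 CPM in shScramble, 410, 391 and 415 CPM with guide 2 and 170, 173 and 170 CPM in the libraries labelled guide 1. The groups did not overlap, with changes of 0.74 (SE 0.0454, adjusted p = 9.52e-14, called) and −0.50 (SE 0.0458, adjusted p = 1.3e-10, under the 1.5-fold limit), and the difference between hairpins, 1.25 (SE 0.0461, adjusted p = 2.02e-19), was the largest of the 29. OGDHL was at 14.5, 12.3 and 11.3 CPM, 22.7, 22.1 and 23.3 CPM, and 19.9, 23.1 and 22.9 CPM in the same order. OGDHL is the only member called in the same direction in both shMETTL3 groups, at 0.83 (SE 0.0878) and 0.78 (SE 0.0865), and the hairpins differed by 0.04 (SE 0.083, adjusted p = 0.637). OGDHL therefore made up 4.56% ± 0.491 of the E1 RNA per length with shScramble, 4.85% ± 0.0514 with guide 2, which overlapped it (exact permutation p = 0.4), and 10.5% ± 0.714 in the libraries labelled guide 1, which did not (exact permutation p = 0.1). DLST changed by 0.46 with guide 2 (SE 0.0470) and 0.03 in the libraries labelled guide 1 (SE 0.0470).

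Succinyl-CoA ligase makes ATP or GTP according to its beta subunit, SUCLA2 or SUCLG2, beside the shared alpha subunit SUCLG1. SUCLG2 was at 108, 109 and 107 CPM in shScramble, 167, 164 and 170 CPM with guide 2 and 91.4, 91.3 and 91.6 CPM in the libraries labelled guide 1. Its libraries agreed closely within groups and did not overlap between them, and it was called with guide 2 (0.63, SE 0.0428, adjusted p = 7.72e-13), a call that lies near the 1.5-fold limit and was lost by library size alone (0.48). SUCLA2 and SUCLG1 changed by 0.36 (SE 0.0499) and 0.23 (SE 0.0489) with guide 2. The GTP-forming subunit made up 62.4% ± 0.335 of the beta subunit RNA per length with shScramble, 66.7% ± 0.979 with guide 2 and 59.7% ± 1.47 in the libraries labelled guide 1, with no overlap between groups (exact permutation p = 0.1 each).

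Succinate dehydrogenase, which is also complex II of the respiratory chain, had the largest change of the set in its catalytic flavoprotein. SDHA (ENSG00000073578) lies on the plus strand of chromosome 5 from 218241 to 256700. SDHA was at 162, 164 and 154 CPM in shScramble, 347, 350 and 351 CPM with guide 2 and 149, 149 and 150 CPM in the libraries labelled guide 1. The guide 2 libraries were 2.18-fold higher (1.13, SE 0.0432, adjusted p = 7.8e-18), and the guide 1 libraries lay just below shScramble (−0.10, SE 0.0433, adjusted p = 0.0424). SDHA has near-identical pseudogenes whose counts summed to 20.9% of its own over the 9 libraries, so reads may be shared between them. Their counts went the other way with guide 2, at −0.63 for SDHAP1 (SE 0.0806), −0.50 for SDHAP3 (SE 0.117) and −0.21 for SDHAP4 (SE 0.0853), and SDHAP2 had 0 counts in every library.

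SDHB, the iron-sulphur subunit, was at 82.8, 84.0 and 85.1 CPM in shScramble, 127, 121 and 124 CPM with guide 2 and 76.0, 70.3 and 74.6 CPM in the libraries labelled guide 1. SDHD, a membrane anchor, was at 95.7, 97.9 and 105 CPM, 140, 139 and 141 CPM, and 84.2, 77.4 and 81.4 CPM. Both had guide 2 above and guide 1 below shScramble in every library, and both were called between the hairpins, by 0.75 (SE 0.0467, adjusted p = 2.16e-14) and 0.79 (SE 0.0477, adjusted p = 1.16e-14). Against shScramble with guide 2 they reached 0.56 (SE 0.0464) and 0.50 (SE 0.0473). SDHC, the other anchor, changed by 0.50 with guide 2 (SE 0.0447) and −0.03 in the libraries labelled guide 1 (SE 0.0448). The other 3 subunits thus changed by 0.50 to 0.56 with guide 2, beside 1.13 for SDHA. TIMM8B and an unnamed gene share SDHD exon bases, 12.7% of them on its own strand.

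FH, fumarase, which hydrates fumarate to malate, was at 140, 136 and 134 CPM in shScramble, 204, 197 and 208 CPM with guide 2 and 109, 102 and 111 CPM in the libraries labelled guide 1. FH stood just inside the 1.5-fold limit with guide 2 (0.57, SE 0.0454, adjusted p = 2.28e-11, not called), was below shScramble in the libraries labelled guide 1 (−0.35, SE 0.0459) and was called between the hairpins (0.92, SE 0.0459, adjusted p = 1.68e-16). MDH2, the malate dehydrogenase of the matrix, was at 613, 601 and 565 CPM, 907, 877 and 1040.3 CPM, and 476, 544 and 583 CPM. MDH2 was called with guide 2 (0.67, SE 0.0717, adjusted p = 4.56e-07) and its guide 1 libraries overlapped shScramble (−0.15, SE 0.0715, adjusted p = 0.0734). MDH1, its cytosolic counterpart in the malate-aspartate shuttle, changed by 0.53 (SE 0.0494, adjusted p = 4.82e-10) and 0.32 (SE 0.0492, adjusted p = 1.58e-06). MDH2 made up 89.5% ± 0.433 of the pair per length with shScramble and 90.4% ± 0.673 with guide 2, which overlapped (exact permutation p = 0.3), and 86.0% ± 1.58 in the libraries labelled guide 1, which did not (exact permutation p = 0.1).

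**Figure D3:**
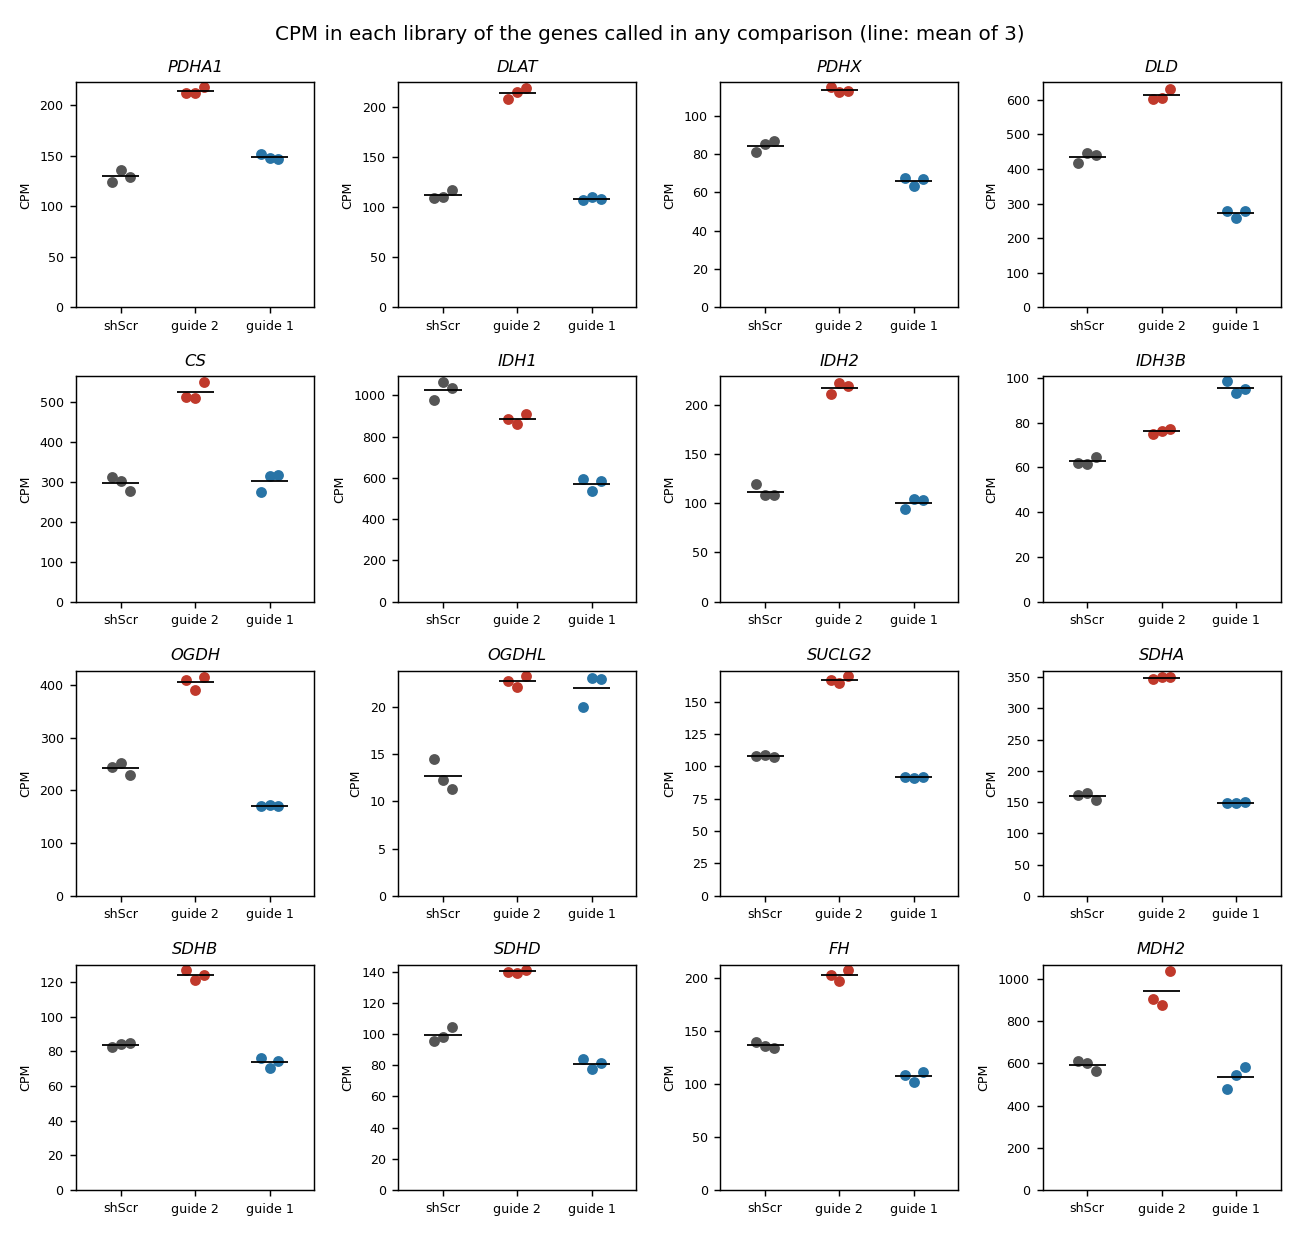
CPM (y axis, from 0) in each library (points) of the 16 genes called in any of the 3 comparisons, by group (x axis), with the mean of 3 libraries as a line. In 13 of the 16 panels the guide 2 libraries are the highest and do not overlap the others, the exceptions being IDH1, IDH3B and OGDHL.

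Per length, the order of the members in shScramble ran from OGDHL (2.22 ± 0.285 RPKM), PC (6.24 ± 0.311) and IDH3A (7.20 ± 0.138) at the bottom to PCK2 (148 ± 6.38), MDH2 (163 ± 6.98) and IDH1 (217 ± 9.68) at the top (SD, n = 3). MDH2 lay above IDH1 in both shMETTL3 groups, at 259 ± 23.9 against 188 ± 5.18 RPKM with guide 2 and 147 ± 14.9 against 121 ± 6.46 RPKM in the libraries labelled guide 1.

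**Figure D4:**
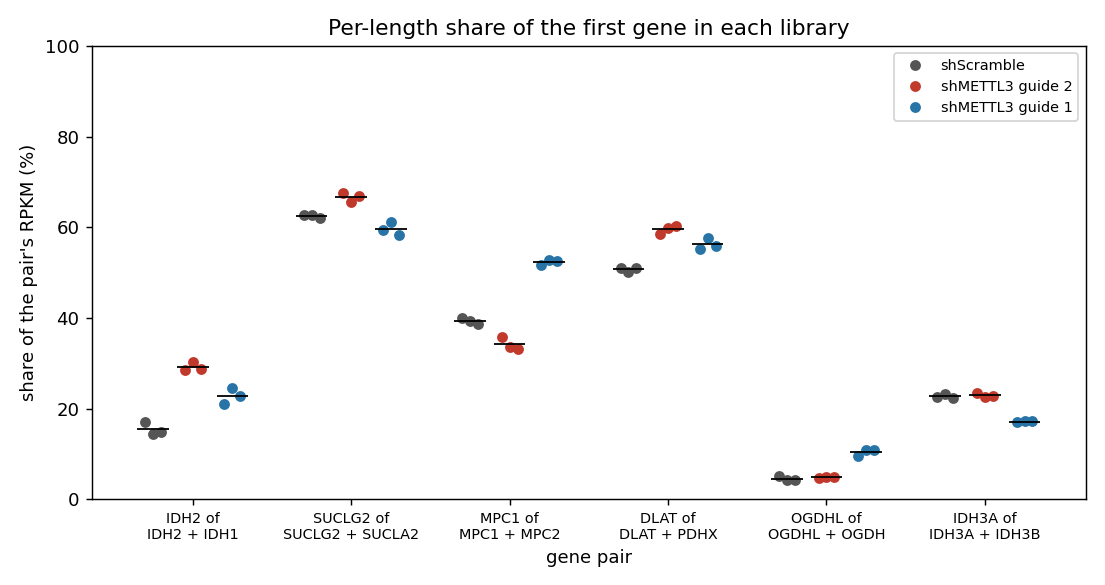
Share (y axis, percent of the summed RPKM of a pair) of the first gene of 6 pairs (x axis) in each library (points), with the mean of 3 libraries as a line. IDH2 makes up 15.5% of its pair in shScramble, 29.2% with guide 2 and 22.8% in the libraries labelled guide 1, and MPC1 lies on opposite sides of shScramble in the 2 shMETTL3 groups.

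Genes around the cycle were counted by short lists, in which 1 called gene is too few for a result about the list. Over all genes, 8.85% were called raised and 20.4% lowered with guide 2. The shares in the libraries labelled guide 1 were 21.2% raised and 16.5% lowered. Of 5 mitochondrial carriers that move cycle intermediates, 3 were called raised with guide 2, against 8.85% of all genes, the 2-oxoglutarate carrier SLC25A11 (1.00, SE 0.0442, adjusted p = 1.21e-16) most, and the dicarboxylate carrier SLC25A10 and the citrate carrier SLC25A1 beside it (0.93 and 0.75). In the libraries labelled guide 1 SLC25A10 alone was called, and lowered (−0.64, SE 0.0837, adjusted p = 8.74e-07), and all 5 carriers were called higher with guide 2 than with guide 1, by 0.61 to 1.57, against 19.1% of all genes and 22.3% of the highest-expressed tertile. Of 6 genes that supply glutamine, glutamate and aspartate carbon, 3 were raised with guide 2, against the same 8.85%, and GLS2, a glutaminase, most (0.85, SE 0.119, adjusted p = 6.2e-07). GLS2 was also the 1 gene of this list called in the libraries labelled guide 1, where it was lowered (−0.93, SE 0.136). Of 5 tested branch enzymes for citrate, malate and lactate, ACLY, which splits exported citrate (0.83, SE 0.0524), and LDHA, the lactate dehydrogenase A chain (0.63, SE 0.10), were raised with guide 2, against 8.85% of all genes. LDHB, the B chain, was the 1 gene of this list called raised in the libraries labelled guide 1 (0.73, SE 0.0488), against 21.2% of all genes. Under the 1.5-fold limit, LDHA was also higher in the libraries labelled guide 1 (0.48, SE 0.10, adjusted p = 0.00198). LDHB was likewise higher with guide 2 (0.46, SE 0.0488, adjusted p = 4.45e-09). The sixth, ME3, was not tested, having at most 3 counts in any library.

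The next lists stand beside the same shares of all genes, 8.85% raised and 20.4% lowered with guide 2. In the libraries labelled guide 1 the shares were 21.2% and 16.5%. Of 7 regulators of pyruvate dehydrogenase, PDK3, a kinase that switches the complex off, was raised with guide 2 (0.60, SE 0.0765, adjusted p = 1.43e-07). PDPR, the regulatory and not the catalytic subunit of the phosphatase that switches the complex on, was raised in the libraries labelled guide 1 (0.86, SE 0.0672). PDK4, another of the kinases, had few counts: 6, 7 and 10 in shScramble, 1, 1 and 0 with guide 2 and 36, 40 and 36 in the libraries labelled guide 1. PDK4 was called in both comparisons, lowered with guide 2 and raised in the libraries labelled guide 1 (2.24, SE 0.374), and no fold change is given for guide 2 because its counts lie at or under the floor of 3 per library. Of 5 genes for lipoylation and partners of 2-oxoglutarate dehydrogenase, MRPS36 was raised (0.65, SE 0.103) and LIPT1 lowered (−0.64, SE 0.198) with guide 2. DHTKD1, a paralogue of OGDH, was called raised in the libraries labelled guide 1 (0.65, SE 0.0562). It was also higher with guide 2, under the 1.5-fold limit (0.44, SE 0.0573, adjusted p = 1.65e-07). The 4 succinate dehydrogenase assembly factors stayed within the 1.5-fold limit, between 0.08 and 0.26 with guide 2 and between −0.39 and 0.50 in the libraries labelled guide 1. Of the 2 zinc importers tested, SLC39A3 was raised with guide 2 (0.62, SE 0.0620); SLC39A2 was not tested, having at most 2 counts.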

How the data were processed

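RNA-seq of 9 libraries of LNCaP:C4-2 cells (3 each of shScramble, shMETTL3 guide 2 and shMETTL3 guide 1) was analysed, with groups and replicate numbers taken from the sample titles. The authors trimmed reads with TrimGalore, aligned them to GRCh38 with STAR and deposited raw counts per gene from FeatureCounts, neither normalized nor pooled. The strand setting and the handling of reads that match several genes are not given in the sources used here, so a read from a stretch that genes share, on either strand, may sit with the wrong gene, and 14 of the 29 members share exon bases with another gene. Of 60675 genes, 56558 (93.2%) received a symbol by Ensembl identifier, and 0 rows named no gene.

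Everything else was computed from these counts. Genes were filtered with edgeR's filterByExpr (version 4.0.16, minimum count 10, minimum total 15), leaving 19278, and tested with the quasi-likelihood F test after TMM scaling, in 1 model of all 9 libraries with a coefficient per group. Adjusted p-values are Benjamini-Hochberg values over all genes tested, and a gene was called at an adjusted p under 0.05 with at least a 1.5-fold change. Standard errors are of the log2 fold change. Shares within gene pairs were compared by the exact permutation test, which cannot go below p = 0.1 here. RPKM were computed from the exon lengths in the files and TMM-scaled CPM. The script was tested on simulated counts. Intervals of counting error were not needed, since each value rests on 3 libraries. No pair of replicates agreed within sampling noise (chi-square per degree of freedom 3.67 to 9.67).

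All 29 members are named, in the order of the pathway, with values per library for those called in any comparison. Of the other lists, called genes with the largest change each way are named, and a few others were named after their values were seen. The members and lists were chosen with earlier results of these data known. The alternatives tried were DESeq2 (version 1.42.0), edgeR with DESeq2's size factors or with library size alone, no filter, a minimum mean of 1 CPM, a fit of the 6 libraries compared, a block for the replicate number, omission of 1 library at a time, a call by adjusted p without a fold limit, and edgeR's test against a 1.5-fold change (glmTreat). Same-numbered libraries did not deviate together, so the block is not used in the report. Promoters are RefSeq sequences (GRCh38.p14), and proteins were not used here.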

Additional observations from a re-analysis of the deposited data

Results flagged for a closer look

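The guide 2 and guide 1 libraries differed in 13 members by edgeR's direct test of one hairpin against the other, and all 13 were higher with guide 2. The differences (guide 2 minus guide 1, log2) were 1.25 for OGDH, 1.23 for SDHA, 1.17 for DLD, 1.11 for IDH2, 0.98 for DLAT, 0.92 for FH, 0.87 for SUCLG2, 0.82 for MDH2, 0.80 for CS, 0.79 for SDHD, 0.78 for PDHX, 0.75 for SDHB and 0.63 for IDH1. In IDH1, whose call was lost by library size alone (0.50), both groups lay below shScramble, and the difference is the smaller fall with guide 2. METTL3 RNA (-0.95 with guide 2 and -0.08 in the libraries labelled guide 1) and the luminal marker sum (2044 to 2148 and 1042 to 1054 CPM) differed between the same groups, and their part in these differences was not tested.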

How the results depend on the processing

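No member called in a comparison changed its direction under any alternative. With guide 2 the median log2 fold change of the members was 0.52 with DESeq2, 0.34 by library size alone, 0.52 with no filter on low counts, 0.45 with a minimum mean of 1 CPM and 0.47 to 0.50 when each library was left out in turn, beside 0.50 as reported, and by the adjusted p alone 26 members were higher and 2 lower. By library size alone SUCLG2 (0.48), MDH2 (0.52) and PDHA1 (0.57) fell under the 1.5-fold limit, as did SUCLG2 with a minimum mean of 1 CPM (0.58), and SDHB and FH (both 0.59) passed it with DESeq2 and with no filter, while glmTreat kept 7 of the 9 calls. In the libraries labelled guide 1 the median lay between -0.104 and -0.0706 when each library was left out, the adjusted p alone gave 6 higher and 13 lower members, and glmTreat called 1 raised member. Between the hairpins the median was 0.39 by library size alone, 0.49 with a minimum mean of 1 CPM and 0.52 to 0.56 when each library was left out, and the adjusted p alone gave 25 higher and 3 lower members. Of the 13 calls, 12 were kept by library size alone, without IDH1 (0.50), and 12 with glmTreat. MPC1 was called lower with guide 2 than guide 1 by library size alone and with a minimum mean of 1 CPM (1 member each), and with 1 library omitted there were 0 to 1 such members, MPC1 without replicate 2 of guide 1 (-0.61). Over all genes with guide 2, 1706 were raised and 3939 lowered as reported, 1012 and 4865 by library size alone, 5792 and 6118 by the adjusted p alone, 890 and 2371 with glmTreat. The causes were not tested beyond the construction of each alternative. With the replicate number as a block the counts of called members were the same (9 raised with guide 2, median 0.49). Same-numbered libraries had deviations that correlated between -0.098 and 0.053, so the numbers do not pair the libraries. The 3 libraries of a group limit a permutation test to p = 0.1. Depth did not keep any member from the test. Of the other genes named, ME3, SLC39A2, KRT14, KRT5 and TP63 had too few or 0 counts to be tested. PDK4 and CAV1 were tested and called on low counts, at most 40 and 81 in a library.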
